A study of Mus musculus with 9 samples.

Results

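Levels of 10 T-lineage genes (Cd3d, Cd3e, Cd3g, Cd247, Cd4, Cd8a, Cd8b1, Lck, Ptcra and Rag1) were read in 9 RNA-seq libraries of sorted splenic DCs as a gauge of T-lineage RNA. The genes were found by symbol, and all 10 were present among the 54532 genes of the deposited expression values. N-mDCs were mature conventional DCs (cDCs) of normal mice that carried no leukemia, T-mDCs were mature cDCs of mice with T-cell acute lymphoblastic leukemia (T-ALL), and T-DCs were the CD11c+ MHCII-lo cells of T-ALL mice, with 3 samples in each group. T-ALL had been set up by giving GFP+ leukemia cells to unirradiated C57BL/6J or C57B6.SJL recipients, and the leukemia cells had been made by retroviral expression of the intracellular domain of Notch1 (MSCV-ICN1-IRES-GFP) in c-kit+ bone marrow cells. Mice of the study were 6 to 8 weeks old, and DCs were sorted on day 15 after red cells had been lysed and CD11c+ cells enriched on beads. The gate of T-DCs included GFP-, CD3- and NK1.1-, so leukemia cells carrying the GFP marker and cells with surface CD3 were excluded from that gate. The labels do not say whether the samples of a group came from separate animals or pools, and the p-values measure only the spread between these samples.

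T cells recognise antigen through a T-cell receptor whose chains are carried to the surface by the CD3 chains, while the co-receptors CD4 and CD8 bring the kinase Lck to the receptor. Thymocytes first recombine their receptor genes with the RAG enzymes and test the beta chain together with the pre-TCR alpha chain encoded by Ptcra. Several of these genes are also active outside T cells: in mouse spleen, CD4 is carried by many cDC2s and CD8 alpha without CD8 beta by cDC1s, NK cells use Lck and the zeta chain encoded by Cd247, and plasmacytoid DCs are known for Ptcra transcripts.

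Expression was given as FPKM, the reads on a gene per kilobase, divided by a scaling size of each library. Reads on genes ran from 15360815 to 18440913 per library, and the reads behind each low value are given beside it, since the lowest Cd3e level rested on 4 reads. Libraries of a group were not equally alike. Over the 12746 genes tested, T-mDC samples 2 and 3 had a Pearson r of 0.991 on the log2(FPKM + 1) scale, while T-DC sample 1 had an r of 0.836 and 0.809 with T-DC samples 2 and 3, which had an r of 0.961 with each other. The DC gene Itgax (CD11c) was present in every library, at 43.0 to 230.0 FPKM. Flt3, the receptor for the DC growth factor, was at 44.4 to 78.8 FPKM among N-mDCs, 4.48 to 15.4 FPKM among T-DCs and 62.9 to 89.1 FPKM among T-mDCs. The red cell gene Hbb-bt was at 68.6, 8480 and 5520 FPKM in T-DC samples 1, 2 and 3, and at 1.39 to 565 FPKM in the other libraries.

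Of the 10 T-lineage genes, 7 had 1 FPKM or more in 3 or more libraries and were tested with the other genes that did so, 12746 in all. Cd247, Ptcra and Rag1 fell below this filter. T-DCs expressed lower levels of 3 of the 7 tested genes than N-mDCs (Cd4, Cd8a and Cd8b1) and higher levels of none, at an adjusted p under 0.05 (limma with Benjamini-Hochberg adjustment over all tested genes). Over all tested genes, 16.4% passed this test in that comparison, 10.3% as lower and 6.1% as higher in T-DCs. Cd8a was the 1 tested T-lineage gene that differed between T-DCs and T-mDCs, where 14.2% of all tested genes passed, 8.79% as lower and 5.44% as higher in T-DCs. Cd8b1 was the 1 that differed between T-mDCs and N-mDCs, where 2.21% of all tested genes passed, 1.52% as lower and 0.69% as higher in T-mDCs. The median log2 fold change of the 7 genes was -1.16, 0.17 and -1.11 in the 3 comparisons in that order, against 0.0529, 0.0684 and 0.0272 over all tested genes. Counted by libraries without overlap, 6 of the 10 genes were lower in T-mDCs than N-mDCs (Cd3e, Cd3g, Cd247, Lck, Cd4 and Cd8b1), where 15.7% of all tested genes were. T-DCs lay below N-mDCs for Cd4, Cd8a and Cd8b1 and above them for Ptcra and Rag1, where 16.4% and 16% of all tested genes did. They lay below T-mDCs for Cd8a and above them for Ptcra, where 18.1% and 16.8% did. These shares cover tested genes only, and Cd247, Ptcra and Rag1 were not among those. The co-receptors made up all of the calls, and Cd3d, Cd3e, Cd3g and Lck passed in no comparison. Cd3e, Cd247, Lck, Ptcra and Rag1 overlap other annotated genes, so their values may hold reads of those genes. For Cd3e, Cd247, Lck and Rag1 a gene on the same strand is among them, and for Ptcra the overlap is on the other strand only. Whether reads were counted by strand is not given in the sources used here. In bulk samples, fewer cells of a type and less RNA per cell cannot be told apart.

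**Figure D1:**
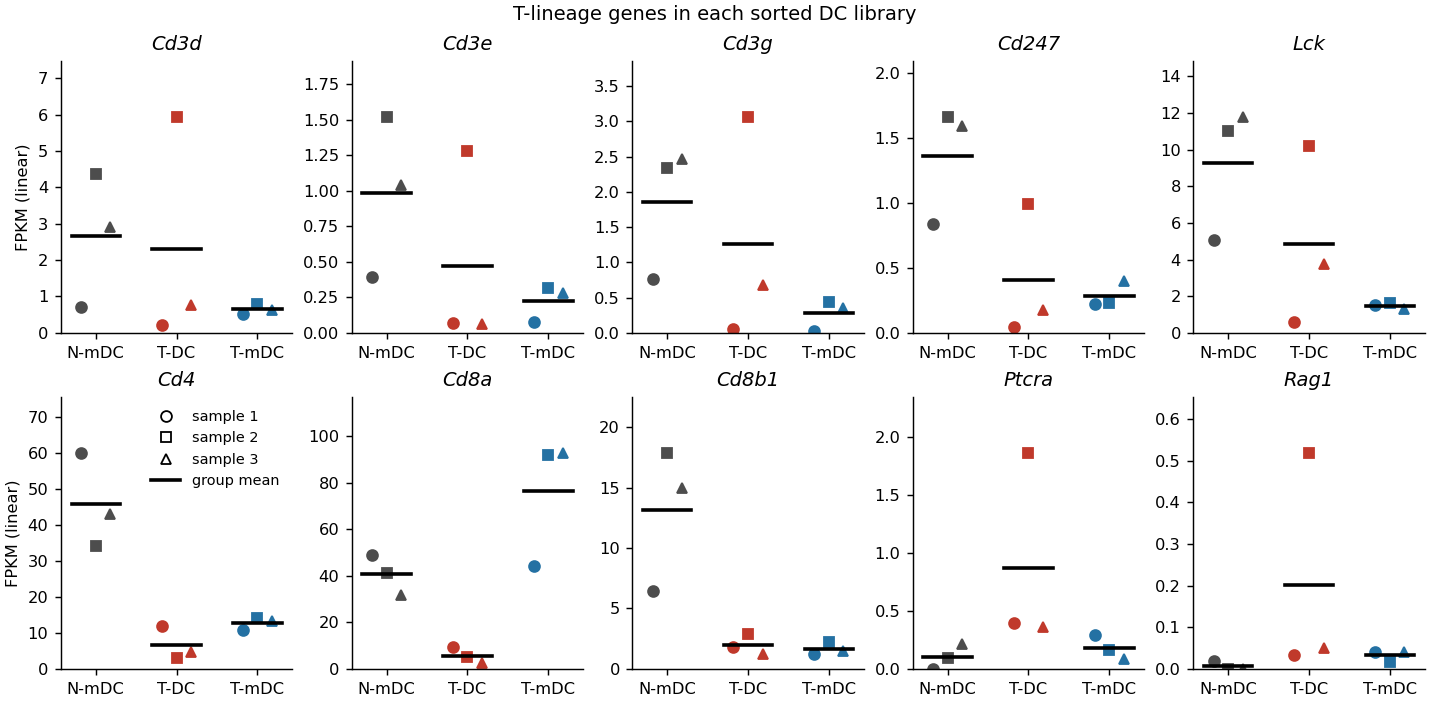
FPKM (vertical axis, linear, a separate scale for each gene) of the 10 T-lineage genes in the 3 libraries of each group, with 1 symbol per sample and a bar at the group mean. T-DC sample 2 is the highest T-DC library for the CD3 chains, Lck, Cd8b1, Ptcra and Rag1 and the lowest for Cd4, while Cd8a is highest in T-mDC samples 2 and 3, at 91.9 and 92.9 FPKM.

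**Figure D2:**
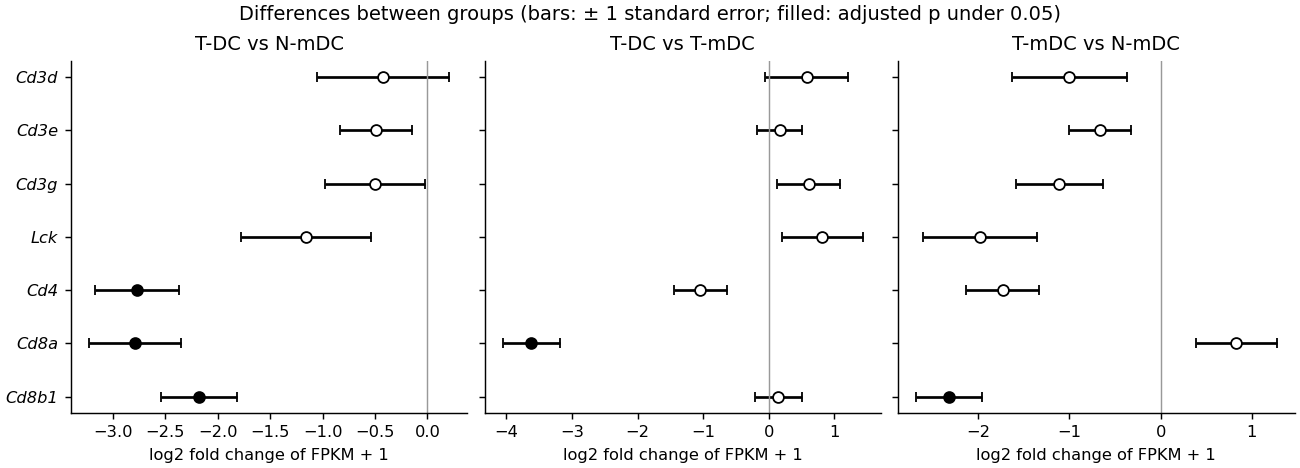
Log2 fold change of FPKM + 1 (horizontal axis) of the 7 tested T-lineage genes for T-DCs against N-mDCs (left) and T-mDCs (middle) and for T-mDCs against N-mDCs (right), each with 1 standard error to either side from limma (n = 3 samples per group). Filled points passed an adjusted p of 0.05: Cd4, Cd8a and Cd8b1 on the left, Cd8a in the middle and Cd8b1 on the right.

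The CD3 chains came first, since they are carried by nearly all mature T cells and CD3+ cells were excluded from the T-DC gate. Cd3d, Cd3e and Cd3g lie side by side on chromosome 9 (GRCm38, 44981786 to 44987339 on the plus strand, 44998740 to 45009627 on the minus strand and 44969572 to 44980431 on the minus strand), and Cd3g and Cd3d start 1355 bases apart and are transcribed away from each other. Because these genes moved together across the libraries, the 250 bases before each start are shown from RefSeq (GRCm38.p6), read 5′ to 3′ on the strand of the gene, at chr9:44980432-44980681 (minus strand) for Cd3g, chr9:44981536-44981785 (plus strand) for Cd3d and chr9:45009612-45009861 (minus strand) for Cd3e. Capitals mark matches on either strand to 6 motifs of transcription factors, none of which overlap. They are AGGAAG for the ETS family, TGTGGT for the RUNX family, CTTTGA for the factors known as TCF7 and LEF1, CAGCTG for the E proteins, CACCTG as another E protein motif, and AGATAA for the family of GATA factors.
Cd3g: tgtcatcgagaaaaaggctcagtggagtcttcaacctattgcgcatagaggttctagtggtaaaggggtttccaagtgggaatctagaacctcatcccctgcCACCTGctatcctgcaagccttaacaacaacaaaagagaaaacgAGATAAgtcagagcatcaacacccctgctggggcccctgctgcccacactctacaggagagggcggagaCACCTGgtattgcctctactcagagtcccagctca
Cd3d: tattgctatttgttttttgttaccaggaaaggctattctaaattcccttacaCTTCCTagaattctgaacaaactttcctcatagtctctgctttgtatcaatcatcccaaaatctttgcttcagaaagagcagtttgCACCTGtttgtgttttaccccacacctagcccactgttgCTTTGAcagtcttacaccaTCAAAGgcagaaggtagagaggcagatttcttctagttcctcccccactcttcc
Cd3e: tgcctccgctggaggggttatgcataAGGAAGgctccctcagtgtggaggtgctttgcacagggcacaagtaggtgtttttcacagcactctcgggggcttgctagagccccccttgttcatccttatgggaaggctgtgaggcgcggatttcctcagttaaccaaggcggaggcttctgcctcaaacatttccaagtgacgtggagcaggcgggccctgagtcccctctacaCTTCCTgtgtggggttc
The windows of Cd3g and Cd3d both hold CACCTG, which is in 17.2% of 32851 promoter windows of this length, and that of Cd3e holds AGGAAG at 2 places, a motif found in 29.5% of windows. The window of Cd3d also holds CTTTGA at 2 places, on opposite strands, where 13.8% of windows hold it. Such matches describe the letters only.

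CD3 RNA was low in every library and ranged most widely within T-DCs. Cd3d (CD3 delta) was at 0.705, 4.38 and 2.91 FPKM in N-mDC samples 1 to 3 (20, 128 and 96 reads), 0.215, 5.94 and 0.762 FPKM in T-DC samples 1 to 3 (7, 167 and 21 reads) and 0.525, 0.798 and 0.629 FPKM in T-mDC samples 1 to 3 (18, 28 and 21 reads). Cd3e (CD3 epsilon) was at 0.392, 1.52 and 1.04 FPKM among N-mDCs (25, 100 and 77 reads), 0.0684, 1.28 and 0.0646 FPKM among T-DCs (5, 81 and 4 reads) and 0.0779, 0.317 and 0.28 FPKM among T-mDCs (6, 25 and 21 reads). T-DC sample 2 was in the range of N-mDC samples 2 and 3 or above it, whereas T-DC samples 1 and 3 rested on 21 reads or fewer for Cd3d and for Cd3e. Cd3g (CD3 gamma) was at 0.763, 2.34 and 2.46 FPKM among N-mDCs (39, 123 and 146 reads), 0.0512, 3.06 and 0.685 FPKM among T-DCs (3, 155 and 34 reads) and 0.0324, 0.443 and 0.349 FPKM among T-mDCs (2, 28 and 21 reads). Cd247 (CD3 zeta; chromosome 1, 165788681 to 165877277, plus strand) was at 0.84, 1.66 and 1.59 FPKM among N-mDCs (70, 142 and 154 reads), 0.0419, 0.993 and 0.173 FPKM among T-DCs (4, 82 and 14 reads) and 0.219, 0.233 and 0.398 FPKM among T-mDCs (22, 24 and 39 reads). For all 4 chains T-DC sample 2 was the highest T-DC library, and for Cd3d and Cd3g it was the highest of the 9 libraries.

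The T-DC and N-mDC libraries overlapped for each of the 4 chains, and so did those of T-DCs and T-mDCs. T-DCs against N-mDCs gave log2 fold changes of -0.42 ± 0.63 for Cd3d, -0.49 ± 0.34 for Cd3e and -0.50 ± 0.48 for Cd3g (SE, n = 3 per group), with limma adjusted p of 0.667, 0.33 and 0.483. T-DCs against T-mDCs gave 0.58 ± 0.63, 0.17 ± 0.34 and 0.61 ± 0.48 for the same genes, with limma adjusted p of 0.572, 0.761 and 0.42. None of these differences passed, and without T-DC sample 2 the Cd3d and Cd3e differences from T-mDCs were -0.17 and -0.19. T-mDCs against N-mDCs gave -1.0 ± 0.63, -0.66 ± 0.34 and -1.11 ± 0.48, with limma adjusted p of 0.465, 0.367 and 0.286. At these low levels the sizes depended on the added 1: with 0.1 added in its place, T-DCs against N-mDCs gave -0.91, -1.52 and -1.28 and T-mDCs against N-mDCs -1.58, -1.67 and -2.46, and limma voom on the recovered reads gave -1.11, -2.21 and -1.81 and -1.70, -2.13 and -3.16, with none passing. Every T-mDC library lay below every N-mDC library for Cd3e, Cd3g and Cd247, but not for Cd3d.

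Summed over the 4 chains, the CD3 level was 2.70, 9.89 and 8.0 FPKM among N-mDCs (154, 493 and 473 reads), 0.377, 11.3 and 1.68 FPKM among T-DCs (19, 485 and 73 reads) and 0.854, 1.79 and 1.66 FPKM among T-mDCs (48, 105 and 102 reads). The sum thus spanned its whole range within T-DCs, from the lowest library of all to the highest. Group means were 6.87 ± 3.73 FPKM among N-mDCs, 4.44 ± 5.95 FPKM among T-DCs and 1.43 ± 0.507 FPKM among T-mDCs (SD, n = 3). On the log2(FPKM + 1) scale, T-DCs differed from N-mDCs by -1.0 (exact two-sided permutation test, p = 0.4) and from T-mDCs by 0.57 (exact permutation p = 0.8). The former was -0.31 without T-DC sample 1 and -1.89 without T-DC sample 2 (exact permutation p = 0.8 and 0.2), and the latter turned to -0.32 without T-DC sample 2 (exact permutation p = 0.6). T-mDCs lay below N-mDCs with no overlap and a difference of -1.57, at an exact permutation p of 0.1, which is the smallest p that 3 samples against 3 allow.

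Across the 9 libraries, the levels of Cd3d, Cd3e and Cd3g on the log2(FPKM + 1) scale followed each other with a Pearson r of 0.936 to 0.958, and Cd3e and Cd247 had an r of 0.925. Without T-DC sample 2 (n = 8) the r of Cd3d with Cd3e was 0.96. The tested genes outside the list whose pattern was most like that of Cd3e were Thy1, a surface protein of T cells (r = 0.969), Trbc1, a beta-chain constant gene (r = 0.955), and Arsi, a sulfatase gene (r = 0.951). These are descriptions over 9 libraries that share their groups and their unequal T-DC samples.

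Lck, the kinase that starts signalling at the T-cell receptor, was expressed at higher levels per length than any CD3 chain in every library. It lies on chromosome 4 (129548344 to 129573641, minus strand). Its level was 5.09, 11 and 11.8 FPKM among N-mDCs (233, 521 and 629 reads), 0.572, 10.2 and 3.78 FPKM among T-DCs (30, 462 and 168 reads) and 1.54, 1.63 and 1.28 FPKM among T-mDCs (85, 92 and 69 reads). As for the CD3 sum, T-DC sample 2 was close to N-mDC samples 2 and 3, T-DC sample 1 was the lowest library, and T-mDCs lay in a narrow range below all N-mDCs. T-DCs against N-mDCs gave a log2 fold change of -1.16 ± 0.62, T-DCs against T-mDCs gave 0.82 ± 0.62 and T-mDCs against N-mDCs gave -1.98 ± 0.62 (SE; limma adjusted p = 0.212, 0.406 and 0.154). With only N-mDCs and T-mDCs in the fit, the last of these passed (limma adjusted p = 0.0199), and without T-DC sample 1 Lck passed as higher in T-DCs than T-mDCs, by 1.56 (limma adjusted p = 0.0214). Without T-DC sample 2 the latter difference was 0.15 (limma adjusted p = 0.891), and the difference of T-DCs from N-mDCs was -0.42 without T-DC sample 1 and -1.84 without T-DC sample 2 (limma adjusted p = 0.446 and 0.0648).

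The ratio of Lck to the CD3 sum was 0.773 to 2.24 in all 9 libraries, a much narrower range than either level. Across libraries Lck had a Pearson r of 0.87 with Cd3e and 0.913 with Cd247. The tested genes with a pattern most like Lck were Nkg7, a granule gene of NK and cytotoxic T cells (r = 0.967), Zap70, the kinase that binds the phosphorylated CD3 chains (r = 0.966), and Lat, the adaptor that Zap70 phosphorylates (r = 0.963). Nkg7 was at 12.9, 37.6 and 36.0 FPKM among N-mDCs, 0.489, 13.8 and 4.32 FPKM among T-DCs and 0.464, 0.679 and 0.535 FPKM among T-mDCs. It separated T-DC samples 2 and 3 from T-mDCs in the way Lck did.

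Cd4 and Cd8a had the highest mean FPKM of the 10 T-lineage genes in each group, although in T-DC sample 2 Lck, at 10.2 FPKM, was above both. Together with Cd8b1 they were the tested T-lineage genes that passed in at least 1 comparison. Cd4 (chromosome 6, 124864692 to 124888221, minus strand), the co-receptor for MHCII, was at 60.0, 34.0 and 43.1 FPKM among N-mDCs, 11.8, 3.09 and 4.72 FPKM among T-DCs and 10.9, 14.2 and 13.4 FPKM among T-mDCs. All T-DCs lay below all N-mDCs, and T-DC sample 1 overlapped with T-mDCs. Cd4 was lower in T-DCs than N-mDCs by a log2 change of -2.77 ± 0.40 (SE; limma adjusted p = 0.00353). Against T-mDCs the log2 fold change was -1.04 ± 0.40 (limma adjusted p = 0.118), and without T-DC sample 1 it was -1.51 and passed (limma adjusted p = 0.00364), while without T-DC sample 2 it was -0.69 (limma adjusted p = 0.329). T-mDCs lay below N-mDCs without overlap, by a log2 change of -1.73 ± 0.40 that did not pass (limma adjusted p = 0.0694) unless T-DC sample 1 was left out (0.0089) or only these 2 groups were fitted (0.0151).

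Cd4 did not follow the CD3 chains. T-DC sample 2, with the highest CD3 sum, had the lowest Cd4 level, and the ratio of Cd4 to the CD3 sum was 0.274 there and 2.80 to 31.2 in the other libraries. The Pearson r of Cd4 with Cd3e was 0.244 over the 9 libraries and 0.715 without T-DC sample 2. The most similar tested genes were Mir132 (r = 0.979), Tec, a kinase gene (r = 0.975), and Trim12a (r = 0.973). Among the cDC2 markers, 6 of 8 tested were lower in T-DCs than N-mDCs and none was higher. Clec4a4, a cDC2 lectin gene, was at 93.2, 66.0 and 50.5 FPKM among N-mDCs, 7.34, 3.49 and 2.89 FPKM among T-DCs and 37.8, 65.7 and 63.4 FPKM among T-mDCs, whereas Sirpa, the most abundant marker of the list, overlapped between all groups (195 to 244 FPKM among N-mDCs, 404, 177 and 100 FPKM among T-DCs, and 124 to 230 FPKM among T-mDCs). Against T-mDCs, 5 of the 8 cDC2 markers were lower and 1 higher, and T-mDCs had 1 lower and 1 higher than N-mDCs. The part of cDC2 markers in the Cd4 levels was not tested.

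Cd8a, the CD8 alpha chain (chromosome 6, 71373427 to 71379173, plus strand), followed cDC1 genes and not the CD3 chains. Its RefSeq promoter window at chr6:71373177-71373426 (GRCm38.p6, plus strand) is shown because Cd8a had the largest fold change of the list, and it holds none of the motifs named above, so it has no capitals.
Cd8a: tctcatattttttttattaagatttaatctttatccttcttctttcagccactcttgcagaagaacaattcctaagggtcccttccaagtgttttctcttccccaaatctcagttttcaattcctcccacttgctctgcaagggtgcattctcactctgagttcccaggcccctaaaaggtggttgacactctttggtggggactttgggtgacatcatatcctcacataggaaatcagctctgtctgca
Cd8a was at 48.9, 41.4 and 32.0 FPKM among N-mDCs, 9.5, 4.99 and 2.35 FPKM among T-DCs and 44.2, 91.9 and 92.9 FPKM among T-mDCs. Every T-DC library lay below every other library. The log2 fold change was -2.79 ± 0.44 in T-DCs against N-mDCs (SE; limma adjusted p = 0.00517) and -3.62 ± 0.44 against T-mDCs (limma adjusted p = 0.00223). T-mDCs and N-mDCs overlapped, with a log2 change of 0.83 ± 0.44 (limma adjusted p = 0.38).

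The Pearson r of Cd8a was 0.996 with Clec9a, the cDC1 receptor for dead cells, 0.995 with Rab7b and 0.994 with Slamf8, the 3 tested genes most like it, and 0.0371 with Cd3e. The ratio of Cd8a to Clec9a FPKM was 0.833 to 1.39 in all 9 libraries. Of the 9 cDC1 markers, 5 were lower in T-DCs than N-mDCs, all 9 were lower in T-DCs than T-mDCs, and none passed between T-mDCs and N-mDCs. Clec9a itself was at 38.4, 32.3 and 30.2 FPKM among N-mDCs, 11.4, 4.51 and 2.80 FPKM among T-DCs and 40.3, 66.8 and 66.8 FPKM among T-mDCs. Naaa and Irf8, the cDC1 markers with the highest mean, were lower in T-DCs than T-mDCs by log2 changes of -2.83 and -1.87 (limma adjusted p = 0.00763 and 0.0194). Summed over the 9 markers, cDC1 RNA was at 385 to 503 FPKM among N-mDCs, 63.9 to 268 FPKM among T-DCs and 588 to 894 FPKM among T-mDCs. The part of cDC1 markers in the Cd8a levels was not tested.

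Cd8b1, the CD8 beta chain that T cells pair with the alpha chain (chromosome 6, 71322788 to 71337494, plus strand), had another pattern than its neighbour Cd8a. It was at 6.47, 17.9 and 15 FPKM among N-mDCs (150, 428 and 404 reads), 1.81, 2.87 and 1.24 FPKM among T-DCs (48, 66 and 28 reads) and 1.25, 2.20 and 1.5 FPKM among T-mDCs (35, 63 and 41 reads). Both groups of leukemic mice lay below N-mDCs without overlap, and they overlapped with each other. Against N-mDCs, Cd8b1 was lower by a log2 change of -2.18 ± 0.36 in T-DCs and -2.32 ± 0.36 in T-mDCs (SE; limma adjusted p = 0.00636 and 0.019). T-DCs against T-mDCs gave 0.15 ± 0.36 (limma adjusted p = 0.813), and -0.06 without T-DC sample 2. The call in T-mDCs was lost when any of N-mDC samples 2 and 3 or T-mDC samples 2 and 3 was left out (limma adjusted p = 0.0828 to 0.0974), and with T-mDC samples 2 and 3 averaged (limma adjusted p = 0.0831).

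The ratio of Cd8a to Cd8b1 FPKM was 7.57, 2.31 and 2.13 in N-mDCs, 5.26, 1.74 and 1.89 in T-DCs and 35.4, 41.8 and 61.8 in T-mDCs. T-mDCs were set apart from both other groups, which overlapped with each other. On the log2 scale the ratio was 3.75 higher in T-mDCs than N-mDCs and 4.12 lower in T-DCs than T-mDCs (a difference of -4.12), each at the smallest possible exact permutation p of 0.1. The Pearson r of Cd8b1 was 0.229 with Cd8a. Among genes looked at after the values were seen, Cd8b1 had an r of 0.966 with Ncr1, an activating receptor of NK cells, and 0.912 with Cd247. Ncr1 was the only NK marker compared with Cd8b1 in this way. Of the 8 NK markers, Klrd1 and Klrk1 were lower in T-DCs than T-mDCs, whereas the other 6 and Cd8b1 did not pass there. The part of NK cells in the Cd8b1 levels was not tested.

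**Figure D3:**
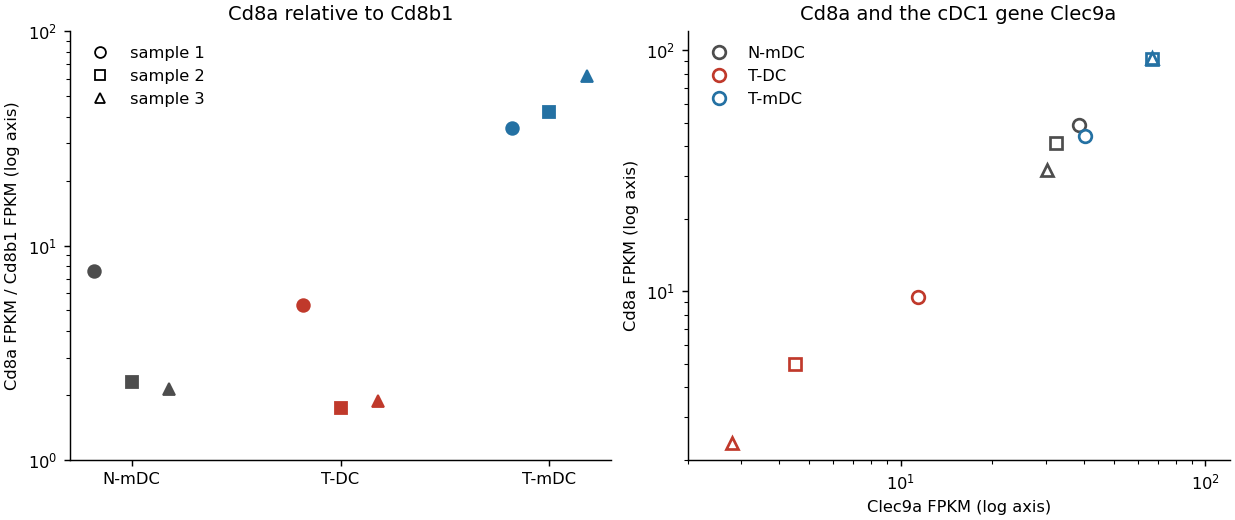
Left, Cd8a FPKM divided by Cd8b1 FPKM (log axis) in each library by group. The T-mDC libraries sit between 35.4 and 61.8 and all others between 1.74 and 7.57. Right, Cd8a FPKM against Clec9a FPKM (both log axes), in which the 9 libraries fall close to a line (Pearson r = 0.996), T-DCs at the low end and T-mDC samples 2 and 3 at the high end.

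Ptcra and Rag1 are active in immature T-lineage cells, though reads of either are not proof of such cells. Both were close to the limit of detection outside T-DC sample 2. The limit that a count of 0 allows, 3 reads, was 0.121 to 0.154 FPKM for Ptcra and 0.0235 to 0.0299 FPKM for Rag1, and covers counting error only. Ptcra (chromosome 17, 46755663 to 46763712, minus strand) is the gene of the list whose T-DC libraries all lay above all others, so its promoter window is shown from RefSeq at chr17:46763713-46763962 (GRCm38.p6, minus strand), with 2 matches to CAGCTG in capitals, a motif in 13.0% of windows.
Ptcra: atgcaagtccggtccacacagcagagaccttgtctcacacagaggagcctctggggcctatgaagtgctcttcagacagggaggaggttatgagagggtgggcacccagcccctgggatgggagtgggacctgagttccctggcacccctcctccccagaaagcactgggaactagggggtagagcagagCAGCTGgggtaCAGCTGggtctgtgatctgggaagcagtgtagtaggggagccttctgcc
Ptcra was at 0, 0.0968 and 0.215 FPKM among N-mDCs (0, 2 and 5 reads), 0.392, 1.86 and 0.359 FPKM among T-DCs (9, 37 and 7 reads) and 0.289, 0.161 and 0.0848 FPKM among T-mDCs (7, 4 and 2 reads). T-DC sample 2 stood far above the rest, while T-DC samples 1 and 3 were separated from T-mDC sample 1 by 2 reads or fewer. Of all tested genes, 16% lay higher in T-DCs than N-mDCs without overlap, and 16.8% lay higher than T-mDCs. When the filter was dropped, Ptcra did not pass in T-DCs against N-mDCs (limma adjusted p = 0.192). With limma voom on the recovered reads, chosen after the data were seen, the adjusted p was 0.0845.

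Rag1, a subunit of the recombinase (chromosome 2, 101638282 to 101649501, minus strand), was at 0.0194, 0 and 0 FPKM among N-mDCs (2, 0 and 0 reads), 0.0338, 0.518 and 0.0498 FPKM among T-DCs (4, 53 and 5 reads) and 0.0401, 0.0157 and 0.0411 FPKM among T-mDCs (5, 2 and 5 reads). Rag1 exceeded 5 reads in T-DC sample 2 alone, and T-DC samples 1 and 3 had as few reads as T-mDCs. T-DCs lay above N-mDCs without overlap and did not pass in the unfiltered fit (limma adjusted p = 0.352, and 0.0651 by limma voom). Ptcra and Rag1 had a Pearson r of 0.95 over 9 libraries and 0.456 without T-DC sample 2. The tested genes most like Ptcra were Yipf4 (r = 0.961), Ighv2-6-8, an immunoglobulin variable gene (r = 0.953), and Gm12657 (r = 0.947). Ighv2-6-8 was at 26.4 FPKM in T-DC sample 2 and at most 1.12 FPKM elsewhere.

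Among 8 further genes of thymocytes, 5 could be tested. Cd1d1 and Ccr9 were lower in T-DCs than N-mDCs (log2 change of -2.64 and -1.04, limma adjusted p = 0.00255 and 0.0422), Cd1d1 was lower against T-mDCs too (-1.90, limma adjusted p = 0.0105), and none passed between T-mDCs and N-mDCs. Cd1d1, which encodes the lipid-presenting molecule CD1d, is also expressed by DCs and B cells. Mns1 was at 0.406, 14.5 and 22.1 FPKM in T-DC samples 1 to 3 and at most 1.96 FPKM elsewhere. In the same samples the summed erythroid markers were at 603, 57900 and 42000 FPKM and the CD3 sum at 0.377, 11.3 and 1.68 FPKM. The part of red cells and their progenitors in the Mns1 levels was not tested. Among the pDC markers, 4 of 10 were lower in T-DCs than N-mDCs, 1 was lower against T-mDCs, and 3 were lower in T-mDCs than N-mDCs. Their summed level was 380 to 762 FPKM among N-mDCs, 180 to 257 FPKM among T-DCs and 141 to 241 FPKM among T-mDCs. The most abundant, Bst2 and Ly6d, were at 148 to 373 and 83.0 to 162 FPKM among N-mDCs and at 87.2 to 119 and 20.8 to 39.5 FPKM among T-DCs. The pDC sum was thus lower in every T-DC library than in every N-mDC library, and overlapped between T-DCs and T-mDCs. Siglech was at 31.2, 50.2 and 69.3 FPKM among N-mDCs, 28.1, 12.2 and 9.23 FPKM among T-DCs and 14.1, 1.8 and 1.49 FPKM among T-mDCs. The part of pDCs in the Ptcra levels was not tested.

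The constant genes of the T-cell receptor chains gave a second reading of T-lineage RNA. Trbc1 was at 7.69, 29.6 and 27.6 FPKM among N-mDCs, 1.19, 28.1 and 4.75 FPKM among T-DCs and 1.70, 4.70 and 4.50 FPKM among T-mDCs, and Trbc2 was at similar levels. Both have near-identical sequences, so their reads may have been split between them. Of the 7 constant genes, all tested, Trdc alone was lower in T-DCs than N-mDCs (log2 change of -1.07 ± 0.28, limma adjusted p = 0.033), and none passed in the other comparisons. Tcrg-C1, named here after its values were seen, was at 12.3 and 62.6 FPKM in T-DC samples 2 and 3 and at 0 to 3.10 FPKM in the other libraries. Summed over the 7 genes, the level was 20.7 to 70.7 FPKM among N-mDCs, 3.72, 82.3 and 76.7 FPKM in T-DC samples 1 to 3 and 6.10 to 13.4 FPKM among T-mDCs. T-DC sample 3 was thus high in this sum, through Tcrg-C1, while its CD3 sum was 1.68 FPKM.

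The variable genes of the beta chain were looked at after the other values were seen. For 35 Trbv genes together, the reads numbered 29, 58 and 99 in N-mDCs, 15, 181 and 91 in T-DCs and 18, 15 and 18 in T-mDCs. In N-mDCs the reads were spread over 12, 17 and 18 of these genes, and the leading gene held 17.2%, 13.8% and 15.2% of them. Trbv19 (chromosome 6, 41178375 to 41179048) held 10.3%, 3.45% and 4.04% of the reads in N-mDCs, 33.3%, 48.1% and 9.89% in T-DCs and 50%, 46.7% and 55.6% in T-mDCs. In T-DC sample 2 this was 87 of 181 reads, with an exact 95% binomial (Clopper-Pearson) interval of 40.6% to 55.6%, while N-mDC sample 2 had 2 of 58 reads, with an interval of 0.42% to 11.9%. In T-mDCs the share rested on 9, 7 and 10 reads, and the lower bounds were 26.0%, 21.3% and 30.8%, above that upper bound of 11.9%, although N-mDC sample 1, with 3 of 29 reads, allowed up to 27.4%. In T-DC sample 3 the leading gene was Trbv13-2 (chromosome 6, 41121396 to 41121832), with 69 of 91 reads (75.8%, interval 65.7% to 84.2%). Trbv13-2 held 27.1% of the reads in T-DC sample 2 and 5.56% to 20.0% in the other libraries. The intervals cover counting error only, and do not allow for both genes having been picked with their shares known. Reads of Trbv13-2 could be shared with other members of its family.

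**Figure D4:**
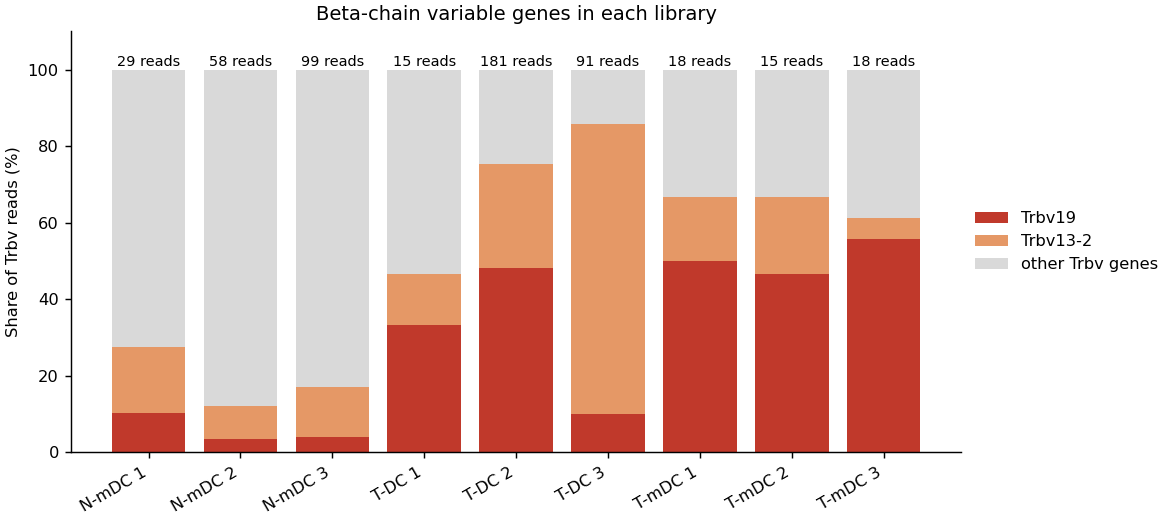
Share of the reads on beta-chain variable (Trbv) genes that fell on Trbv19, on Trbv13-2 and on the other Trbv genes (vertical axis, %), for each of the 9 libraries, with the number of Trbv reads above each bar. Trbv19 held at most 10.3% in N-mDCs and 46.7% to 55.6% in T-mDCs, and Trbv13-2 held 75.8% in T-DC sample 3.

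Of 24 genes of T-cell receptor signalling and the T-cell surface, 17 could be tested. In T-DCs against N-mDCs, 5 were lower and none higher, with a median log2 fold change of -0.72 over the 17. Cd7 (-3.42, limma adjusted p = 0.00406), Cd5 (-2.37, limma adjusted p = 0.00173) and Cd2 (-2.58, limma adjusted p = 0.0351) were among them, together with Cd96 and Tespa1. Cd7 is also expressed by NK cells and pDCs, and it was at 147 to 217 FPKM among N-mDCs, 7.38 to 26.7 FPKM among T-DCs and 22.0 to 63.3 FPKM among T-mDCs. Fyb, the next most abundant gene of the list and an adaptor of many blood cells, overlapped between the groups (34.5 to 109 FPKM). In T-DCs against T-mDCs, 2 were lower (Cd5 and Tespa1), and in T-mDCs against N-mDCs Cd5 was lower and Grap2 higher. Zap70 and Lat, which act with Lck, passed in no comparison and followed the CD3 chains, with Zap70 at 1.62, 4.17 and 3.79 FPKM among N-mDCs, 0.131, 3.39 and 0.55 FPKM among T-DCs and 0.106, 0.363 and 0.327 FPKM among T-mDCs.

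Of 12 T-lineage transcription factors, 7 could be tested, and 2 were lower in T-DCs than N-mDCs (Satb1 and Runx3), 3 were lower in T-DCs than T-mDCs (Tcf7, Satb1 and Runx3) and none passed between T-mDCs and N-mDCs. Tcf7, the T-lineage factor TCF1, was at 49.8, 18.4 and 41.9 FPKM among N-mDCs, 1.64, 21.1 and 2.96 FPKM among T-DCs and 49.2, 116 and 114 FPKM among T-mDCs. It was lower in T-DCs than T-mDCs by a log2 change of -3.84 ± 0.77 (limma adjusted p = 0.0142), and thus did not rank the libraries as the CD3 chains did. Runx3, a repressor of Cd4 in CD8 T cells that is also expressed by DCs, was at 20.1 to 30.9 FPKM among N-mDCs, 4.33 to 5.36 FPKM among T-DCs and 15.9 to 25.1 FPKM among T-mDCs. Zbtb7b, the CD4-lineage factor ThPOK, was at 13.5 to 16.1 FPKM among N-mDCs and 17.4 to 46.0 FPKM among T-DCs (limma adjusted p = 0.127). Of 9 effector T-cell genes, 3 could be tested, and Icos and Tnfrsf4 were lower in T-DCs than in both other groups (log2 change of -1.95 and -2.13 against N-mDCs, limma adjusted p = 0.00207 and 0.00447), with none passing between T-mDCs and N-mDCs. Ctla4 was at 7.16 to 13.3 FPKM among N-mDCs and 0.599, 6.48 and 1.92 FPKM in T-DC samples 1 to 3.

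Since the leukemia cells carried the intracellular domain of Notch1, Notch1 and its targets were read beside the T-lineage genes. Of 9 genes, 6 could be tested: Dtx1 and Il7r were lower in T-DCs than in both other groups, Nrarp was higher in T-DCs than T-mDCs, and none passed between T-mDCs and N-mDCs. Dtx1, which encodes a ubiquitin ligase, was at 37.8 to 60.0 FPKM among N-mDCs, 1.10, 5.58 and 1.21 FPKM among T-DCs and 18.7 to 45.0 FPKM among T-mDCs. Nrarp, a feedback inhibitor of Notch, was at 0.768 to 1.77 FPKM among N-mDCs, 0.995, 3.20 and 2.81 FPKM among T-DCs and 0.321 to 0.595 FPKM among T-mDCs (T-DCs against T-mDCs, log2 fold change 1.15 ± 0.30, limma adjusted p = 0.0373). Hes1 was at 6.76 to 54.0 FPKM and Notch1 itself at 1.07 to 4.57 FPKM over all libraries, and neither passed in any comparison.

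Markers of other cells were read in the same libraries, and none of their sums ranked all libraries as the CD3 sum did. All 8 NK markers were lower in T-DCs than N-mDCs, 5 of 8 were lower in T-mDCs than N-mDCs, and 2 were lower in T-DCs than T-mDCs. Their sum was 141 to 211 FPKM among N-mDCs, 10.7, 25.6 and 5.71 FPKM in T-DC samples 1 to 3 and 27.9 to 45.9 FPKM among T-mDCs. Gzma, an NK and cytotoxic T-cell granule gene, was at 23.7, 62.5 and 76.8 FPKM among N-mDCs, 0.555, 9.94 and 1.05 FPKM among T-DCs and 0.579 to 1.08 FPKM among T-mDCs, and Klrd1, the most abundant marker of the list, was lower in T-DCs by log2 changes of -3.70 and -2.21 against N-mDCs and T-mDCs (limma adjusted p = 0.000696 and 0.00498). Of the T-lineage genes, Cd247 and Cd8b1 had a Pearson r of 0.905 and 0.966 with Ncr1, and Cd3e and Lck had an r of 0.744 and 0.778. Without T-DC sample 2 these were 0.956, 0.966, 0.895 and 0.888, in that order. Ncr1 was picked after the values were seen. It is the only listed NK marker whose r with these genes is given, so the values describe Ncr1 and not the list. Ncr1 was among the 5 markers lower in T-mDCs than N-mDCs, with a log2 change of -2.35. Klrk1 was not among them, and its levels overlapped between these groups, with a log2 change of -0.13. No NK marker was at 0 in any library.

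B-cell markers fell in T-DCs as well: 4 of 5 tested were lower relative to N-mDCs and 2 relative to T-mDCs, and none passed between T-mDCs and N-mDCs. The 6 listed markers summed to 209 to 283 FPKM among N-mDCs, 43.0, 89.1 and 31.3 FPKM among T-DCs and 181, 49.7 and 52.0 FPKM among T-mDCs, with Cd79a at 92.5 to 135 FPKM among N-mDCs and 7.82, 42.7 and 15.2 FPKM among T-DCs. Cd79b, which did not pass against N-mDCs (limma adjusted p = 0.107), was at 47.5 to 90.3 FPKM among N-mDCs and 33.2, 33.6 and 13.1 FPKM among T-DCs. T-DC sample 2 was the highest T-DC library for CD3, NK and B-cell sums alike. The 8 erythroid markers summed to 603, 57900 and 42000 FPKM among T-DCs, 99.4, 5360 and 485 FPKM among N-mDCs and 179, 21.5 and 14.5 FPKM among T-mDCs. All 8 were higher in T-DCs than T-mDCs, 1 was higher relative to N-mDCs, and none passed between T-mDCs and N-mDCs. Among 7 genes that define DCs, 6 were lower in T-DCs than in each other group, MHCII genes among them, which the sort itself selected, and none passed between T-mDCs and N-mDCs. The part of NK cells, B cells, red cells and their progenitors in the T-lineage levels was not tested.

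**Figure D5:**
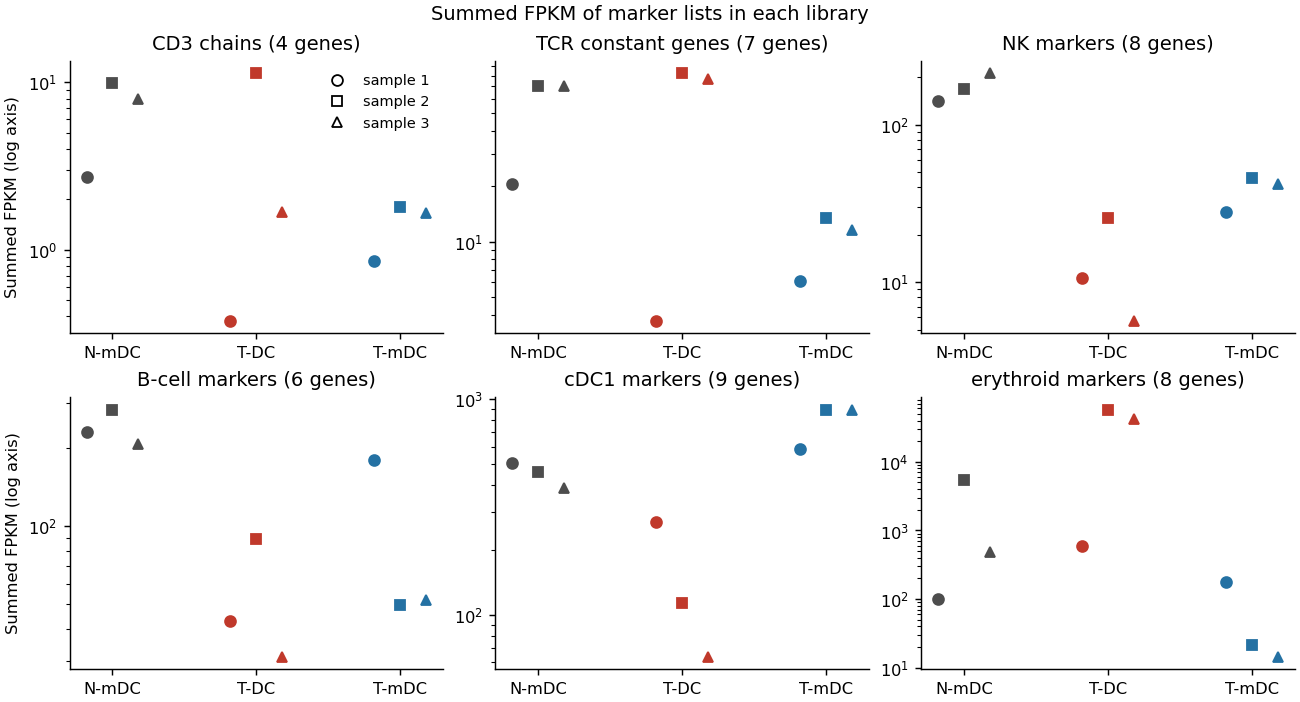
Summed FPKM (log axes, a separate scale for each list) of the CD3 chains, the T-cell receptor constant genes and the NK, B-cell, cDC1 and erythroid markers in each library by group. The CD3 sum runs from 0.377 to 11.3 FPKM within T-DCs, while NK marker sums of 5.71 to 25.6 FPKM among T-DCs lie below those of 141 to 211 FPKM among N-mDCs.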

How the data were processed

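RNA of sorted splenic DCs was sequenced (3 samples each of N-mDCs, T-mDCs and T-DCs). The authors deposited FPKM values for 54532 genes on genome build mm10, and the aligner, annotation, counting and test are not given in the sources used here. Reads were recovered as FPKM times gene length, and came out whole to within 5.59e-05 of a read. Genes reaching 1 FPKM in 3 or more samples were tested as log2(FPKM + 1) with limma 3.58.1 in R 4.3.3 (1 fit of all groups, empirical Bayes trend, Benjamini-Hochberg adjustment over 12746 genes, threshold 0.05). The added 1 understates fold changes of low genes. The procedure was tested on simulated data, in which each gene had the same noise in all samples, unlike the unequal T-DC samples. The outcome is not given here. Sums and ratios were compared by exact two-sided permutation tests (scipy 1.17.1). Promoter windows of 250 bases came from RefSeq (GRCm38.p6) for 8 of the 10 genes.

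The T-lineage genes, the 17 gene lists (CD3 chains, co-receptors, Lck, pre-TCR and recombinase, T-cell receptor constant genes, signalling, transcription factors, thymocyte, effector, Notch, DC, cDC1, cDC2, pDC, NK, B-cell and erythroid) and the tests were chosen with earlier results of these data known. From each list but those of DC and erythroid genes, the 2 genes with the highest mean FPKM are named, with any gene whose call is described. Itgax, Flt3 and Hbb-bt were named from the DC and erythroid lists as checks of the labelled cell type. For likeness, the 3 tested genes with the highest Pearson r are named. Groups came from the labels. Alternatives were another pseudocount (0.1), no filter, a stricter filter (5), TPM, median-of-ratios scaling, limma voom on recovered reads, only the groups compared, a replicate block, T-mDC samples 2 and 3 averaged and each sample left out.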

Additional observations from a re-analysis of the deposited data

How the results depend on the processing

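The lower Cd4, Cd8a and Cd8b1 levels in T-DCs against N-mDCs, and the lower Cd8a level against T-mDCs, passed under all 18 alternatives, and Cd8b1 in T-mDCs against N-mDCs passed under 13 of 18. Not all alternatives could change a result. Median-of-ratios scaling used the same factor in every library, and dropping or averaging samples outside a comparison left its fold changes as they were. Leaving out each sample gave 3 calls in every case for T-DCs against N-mDCs, 1 to 3 for T-DCs against T-mDCs (3 without T-DC sample 1, namely Cd4, Cd8a and Lck) and 0 to 3 for T-mDCs against N-mDCs (0 without N-mDC sample 2 or 3 or T-mDC sample 2 or 3, and 3 without T-DC sample 1). The last comparison gave 3 calls (Cd4, Cd8b1 and Lck) with only its groups in the fit and 0 with T-mDC samples 2 and 3 averaged. Against T-mDCs, values in T-DCs that changed sign were those of the CD3 sum (-0.32), Cd3d (-0.17), Cd3e (-0.19) and Cd8b1 (-0.06) without T-DC sample 2 (leaving out each sample gave ranges of -0.32 to 1.26, -0.17 to 1.09, -0.19 to 0.36 and -0.06 to 0.33), Cd3e with limma voom (-0.08), Cd8b1 with TPM (-0.08) and unfiltered Cd247 with limma voom (-0.49, added after seeing the data). Against N-mDCs, Cd3d was at 0.08 without T-DC sample 1 and at -1.17 without T-DC sample 2. None of these passed, and the causes were not tested.

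TPM moved the median log2 fold change of all tested genes from 0.0684 to -0.228 in T-DCs against T-mDCs (376 higher and 1339 lower calls, against 693 and 1120) and from 0.0272 to 0.235 in T-mDCs against N-mDCs (49 and 50, against 88 and 194), so directions of small changes depend on scaling. Median-of-ratios scaling, whose factor was 1.004 in every library, changed no call among the T-lineage genes and gave 283 calls in place of 282 over all tested genes for T-mDCs against N-mDCs. Without T-DC sample 1, calls over all tested genes rose from 2096 to 5030, from 1813 to 4475 and from 282 to 1022 for T-DCs against N-mDCs and T-mDCs and for T-mDCs against N-mDCs, in that order. With the replicate number as a block, 3, 1 and 1 T-lineage genes passed in that order, as without it, and 1378, 1253 and 78 genes of all tested. Same-numbered samples did not deviate together throughout (correlations of 0.269, 0.218 and -0.181, of -0.0714, -0.118 and 0.0224, and of -0.475, -0.343 and 0.0243). With 3 samples per group, these values cannot tell whether same-numbered samples share animals, which the labels do not give. Depth limits Ptcra and Rag1 most, which had 9 reads or fewer in all libraries but T-DC sample 2.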
